A study of Mus musculus with 6 samples.

Results

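Transcripts of 4 stromal growth factors and 4 receptors were followed in mouse mammary gland: the fibroblast growth factors Fgf2, Fgf7 and Fgf10, hepatocyte growth factor Hgf, the FGF receptors Fgfr1, Fgfr2 and Fgfr3, and the HGF receptor Met. They were taken by name, and all 8 of 8 were among the 17464 gene symbols measured. The treated samples were 3 mammary glands of wild-type C57BL/6 mice given recombinant mouse CXCL14 protein, a chemokine, and the controls were 3 glands of untreated wild-type C57BL/6 mice. All were collected at postnatal day 45. The sources used here give neither dose, route nor length of treatment, and do not say whether a replicate is a separate animal. The p-values therefore measure the spread among these 6 libraries, part of which may be technical. The series title names endothelial cells, whereas the labels give mammary gland and mention no sort.

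FGFs and HGF are secreted, heparin-binding ligands that act on receptor tyrosine kinases. In the mammary gland, stromal cells are known to make Fgf7, Fgf10 and Hgf, while epithelial cells carry the b splice form of Fgfr2 and Met, and this exchange drives duct growth and branching. Fgf2 and Fgfr1 also act in fibroblasts and vessels. Receptor activation runs through adaptors such as Frs2, Grb2 and Gab1 to the ERK kinases, and is damped by Sprouty proteins and dual-specificity phosphatases.

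The values are FPKM, fragments scaled for the length of the gene and the size of the library, as the authors deposited them. Whole read numbers could be recovered from their steps, between 15309623 and 17050805 per library, and show the depth behind each value. CXCL14 replicate 1 lay next to untreated replicate 1. Over the 11516 genes tested, the mean chi-square between their reads was 2.43 per gene, where counting noise alone gives about 1, against 25.7 to 99.1 for the other 14 pairs. Over the 8 growth factor and receptor genes it was 0.284 per gene for this pair, within counting noise, against 12.5 to 117 for the rest. Over all genes these libraries thus differed by more than counting noise, but whether they share material or whether either carries the wrong label was not tested. If so, the 3 libraries of a group would not be 3 independent samples of it, and every group mean and SD given here would be affected. Both libraries were kept as labelled, and results of the group tests are given with and without CXCL14 replicate 1. Dropping a treated library that lies close to a control makes the groups more different by construction.

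The sequences upstream of Fgf10, Fgf7 and Hgf are shown because these ligands had their 3 highest levels in the same libraries. For Hgf this rests on few reads, as described further on. Each is the 250 bases before the RefSeq gene start on GRCm38.p6, 5′ to 3′, with matches to the GC box GGGCGG or the CCAAT box in capitals, on either strand.
Fgf10 (chr13:118714449-118714698, plus strand): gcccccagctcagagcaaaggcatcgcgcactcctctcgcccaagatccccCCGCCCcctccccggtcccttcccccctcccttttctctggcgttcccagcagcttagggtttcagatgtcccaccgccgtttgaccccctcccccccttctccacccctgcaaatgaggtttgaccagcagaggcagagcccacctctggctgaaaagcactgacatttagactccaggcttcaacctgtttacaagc
Fgf7 (chr2:126034408-126034657, plus strand): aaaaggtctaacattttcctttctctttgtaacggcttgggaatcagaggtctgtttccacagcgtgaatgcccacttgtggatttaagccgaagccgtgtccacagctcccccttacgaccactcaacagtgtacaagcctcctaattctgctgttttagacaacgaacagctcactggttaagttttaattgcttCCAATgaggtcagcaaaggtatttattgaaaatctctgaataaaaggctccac
Hgf (chr5:16553245-16553494, plus strand): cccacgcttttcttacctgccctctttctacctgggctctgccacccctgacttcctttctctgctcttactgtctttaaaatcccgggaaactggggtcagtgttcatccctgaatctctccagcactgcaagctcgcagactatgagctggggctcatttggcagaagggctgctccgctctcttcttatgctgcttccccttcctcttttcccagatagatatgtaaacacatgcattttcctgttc
RefSeq lists 2 starts for Hgf, and the upstream one is shown. The windows differed in composition, with 61.2% G and C for Fgf10, 43.6% for Fgf7 and 50.8% for Hgf, against a median of 52.4% over 32851 windows of the same length. Fgf10 had 1 GC box, which 32.7% of all windows hold, and Fgf7 had 1 CCAAT box, which 33.8% hold. No TATA box (TATAAA, in 12.4% of windows), E-box (CAGCTG, 13%) or AP-1 match (TGANTCA, 6.75%) lay in the 3 windows, searched on both strands. The searched motifs did not overlap one another in these windows, and a match is a description of letters only. Of the other members, the table had windows for Fgf2, Fgfr2, Fgfr3 and Met. Met had the highest share of G and C, 74.0%, with 3 GC boxes and 1 AP-1 match, and Fgfr2 had 44.0% with none of the 5 motifs.

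The 4 ligands were transcribed at very low levels in these glands, below 1 FPKM in every library, while the receptors ranged from 0.416 FPKM for Met to 13.3 FPKM for Fgfr1. For each of the 8 genes the CXCL14 and untreated groups overlapped, whereas they did not for 11.0% of all 17464 genes. By mean FPKM over the 6 libraries the order was Fgfr1, Fgfr2, Fgfr3, Met, Fgf7, Fgf10, Fgf2 and Hgf. Fgfr2 was above Fgfr3, Fgfr3 above Met and Met above Fgf7 in each of the 6 libraries. Fgfr1 was above Fgfr2 in 5 of 6 libraries, Fgf2 above Hgf in 5 of 6, Fgf7 above Fgf10 in 3 of 6 and Fgf10 above Fgf2 in 3 of 6, so the order of these neighbours did not hold in every library. In bulk tissue, fewer cells of a type and less RNA per cell cannot be told apart.

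**Figure D1:**
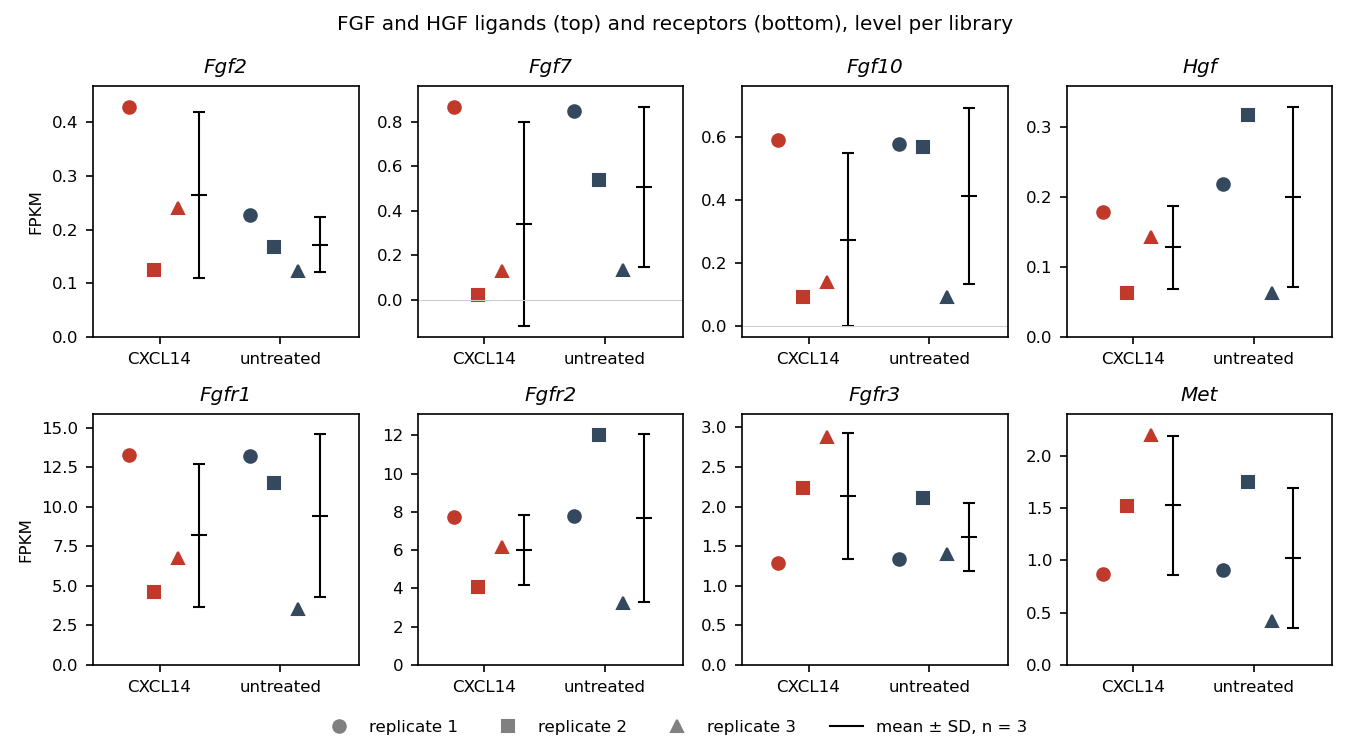
FPKM of the 4 ligands (top) and 4 receptors (bottom) per library, CXCL14 on the left and untreated on the right of each panel. Symbols give the replicate number, and bars are the mean ± SD of 3 libraries. The groups overlap in all 8 panels, and the symbols of replicate 1 lie at nearly the same height in both groups for Fgf7, Fgf10 and the 4 receptors.

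Fgf10, the main ligand of the epithelial form of Fgfr2 in limb and gland buds, measured 0.590, 0.0928 and 0.141 FPKM in CXCL14 replicates 1, 2 and 3, against 0.578, 0.570 and 0.0916 FPKM in untreated replicates 1, 2 and 3. It was thus high in CXCL14 replicate 1 and untreated replicates 1 and 2, with low values in the remaining 3. These values rest on 42, 7 and 11 reads in the CXCL14 libraries and on 42, 40 and 7 reads in the untreated ones. The exact 95% Poisson interval, which covers counting error only, ran from 2.81 to 14.4 reads for a count of 7 and from 28.6 to 54.5 for 40, so the 2 levels are apart beyond counting error.

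Fgf7, also called keratinocyte growth factor, measured 0.865, 0.0227 and 0.131 FPKM in the CXCL14 libraries, against 0.848, 0.536 and 0.134 FPKM in the untreated ones. The same 3 libraries were high as for Fgf10. The reads were 36, 1 and 6 with CXCL14 and 36, 22 and 6 without. For the count of 1 the interval was 0.0253 to 5.57 reads and for 6 it was 2.2 to 13.1, so CXCL14 replicate 2 was not distinguishable from untreated replicate 3 at this depth.

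Hgf, the ligand of Met, measured 0.179, 0.0634 and 0.143 FPKM in the CXCL14 libraries, against 0.219, 0.318 and 0.0626 FPKM in the untreated ones. Its reads were 8, 3 and 7 with CXCL14 and 10, 14 and 3 without. The highest and lowest libraries were both untreated, replicates 2 and 3. Their intervals overlapped, at 7.65 to 23.5 and 0.619 to 8.77 reads, though overlap of such intervals does not show equal levels.

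Fgf2, a growth factor for fibroblasts and endothelium, measured 0.429, 0.124 and 0.240 FPKM in the CXCL14 libraries, against 0.226, 0.167 and 0.123 FPKM in the untreated ones. The highest was CXCL14 replicate 1 with 13 reads (interval 6.92 to 22.2) and the lowest untreated replicate 3 with 4 reads (1.09 to 10.2). All of these intervals overlapped. Fgf2 shares 640 exonic bases with Nudt6 on the opposite strand in GENCODE M21, a gene at 4.32, 3.42 and 2.78 FPKM in the CXCL14 libraries, against 3.69, 4.27 and 4.01 FPKM in the untreated ones. No source used here says whether counting used strand, so reads of the pair cannot be told apart with certainty. The gene length behind the Fgf2 values, 1948 bases, is below the 5973 bases of its longest GENCODE M21 transcript. The same doubt about strand holds for Fgf10, which shares 123 exonic bases with Gm16263 on the opposite strand, and for Fgfr1, which shares 164 with Gm16159. On the same strand, Fgf2 shares 255 exonic bases with Gm43439, Fgfr2 314 with Ctbp2 and Hgf 484 with Gm43489, and how such reads were assigned is not known.

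**Figure D2:**
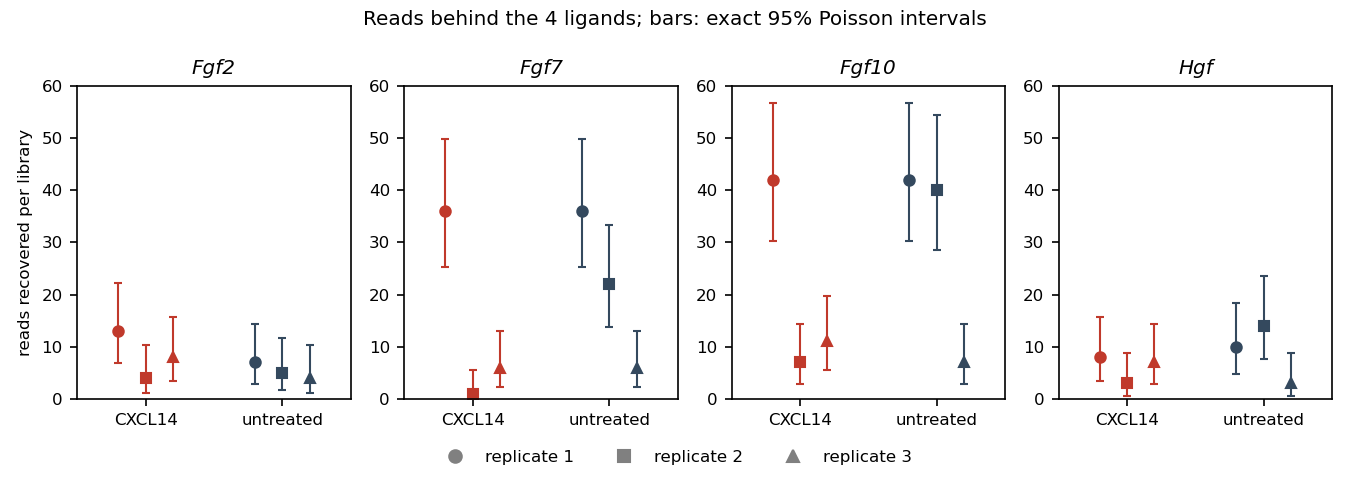
Recovered reads of the 4 ligands per library, CXCL14 on the left and untreated on the right, with exact 95% Poisson intervals for counting error. Fgf7 and Fgf10 have between 22 and 42 reads in CXCL14 replicate 1 and untreated replicates 1 and 2 and between 1 and 11 in the other 3 libraries, while the intervals of Fgf2 overlap throughout.

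Fgfr1, the FGF receptor of mesenchymal and many vascular cells, measured 13.3, 4.58 and 6.76 FPKM in the CXCL14 libraries, against 13.2, 11.5 and 3.57 FPKM in the untreated ones. With 300 reads or more in each library, these differences within groups far exceeded counting error. Fgfr2, whose epithelial form binds Fgf7 and Fgf10, measured 7.75, 4.08 and 6.17 FPKM in the CXCL14 libraries, against 7.78, 12.01 and 3.26 FPKM in the untreated ones. Both receptors were lowest in untreated replicate 3 and next lowest in CXCL14 replicate 2. Fgfr1 was highest in the libraries numbered 1, and Fgfr2 in untreated replicate 2.

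Fgfr3 measured 1.29, 2.24 and 2.88 FPKM in the CXCL14 libraries, against 1.33, 2.11 and 1.40 FPKM in the untreated ones. Fgfr3 differed from the other FGF receptors in that its lowest levels were in the libraries numbered 1, on 91 reads with CXCL14 (95% Poisson interval 73.3 to 112) and 96 reads without (77.8 to 117). Fgfr3 was about as low in untreated replicate 3, on 106 reads (86.8 to 128). In GENCODE M21 it shares 998 exonic bases with G630022F23Rik on the opposite strand, so its reads carry the same doubt about strand. Met, the HGF receptor, measured 0.866, 1.52 and 2.19 FPKM in the CXCL14 libraries, against 0.903, 1.75 and 0.416 FPKM in the untreated ones. Met was high in CXCL14 replicates 2 and 3 and in untreated replicate 2, and lowest in untreated replicate 3 with 48 reads.

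The mix of the 3 FGF receptors differed between libraries. Fgfr3 made up 5.78%, 20.5% and 18.2% of their summed FPKM in the CXCL14 libraries, against 5.97%, 8.24% and 17.0% in the untreated ones. Fgfr1 made up 59.5%, 42.1% and 42.8% with CXCL14, against 59.2%, 44.9% and 43.4% without, so the groups overlapped for both shares. The summed FPKM of the 4 ligands was 2.06, 0.303 and 0.655 in the CXCL14 libraries, against 1.87, 1.59 and 0.411 in the untreated ones, on between 15 and 99 reads per library.

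**Figure D3:**
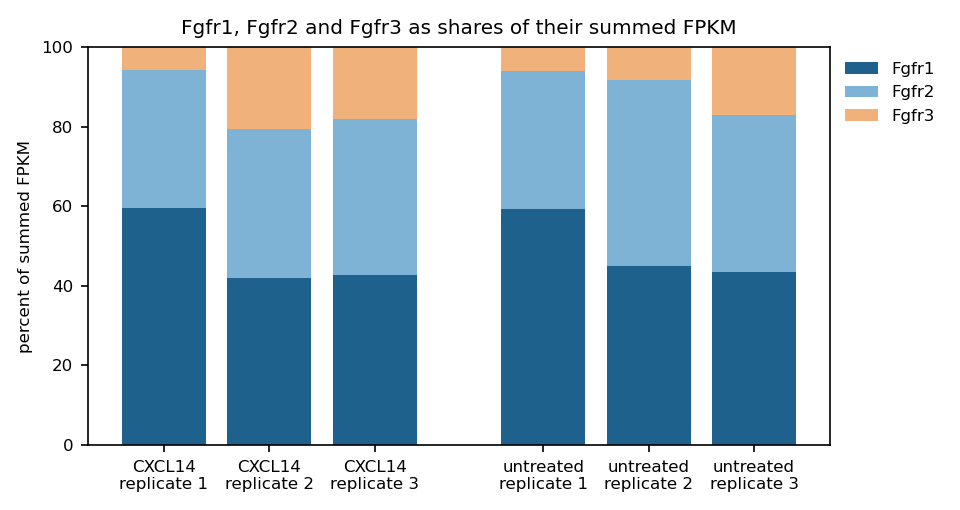
Fgfr1, Fgfr2 and Fgfr3 as percent of their summed FPKM, 1 bar per library, CXCL14 libraries on the left and untreated on the right. The Fgfr3 share is near 6% in both libraries numbered 1 and between 17.0% and 20.5% in CXCL14 replicates 2 and 3 and untreated replicate 3.

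The comparison of CXCL14 with untreated glands asked whether the treatment altered these transcripts. Genes with at least 1 FPKM in at least 3 libraries were tested with limma-trend on log2(FPKM + 1), with Benjamini-Hochberg adjustment over all 11516 genes. The 4 receptors passed this filter and the 4 ligands did not. Of the 4 receptors 0 passed the threshold of an adjusted p under 0.05, against a background of 0.0% of all genes tested. Over all genes tested the groups did not overlap for 4.74% with CXCL14 higher and 8.36% with CXCL14 lower, and for 0 of these 4 receptors. None of the 4 had an unadjusted p under 0.05, by limma-trend or by voom on the recovered reads, while over all genes 895 had one by limma-trend and 905 by voom, with 0 calls by either.

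Fgfr1 averaged 8.21 ± 4.53 FPKM with CXCL14 and 9.44 ± 5.15 without (n = 3 each, SD), with a log2 fold change of -0.13 (SE 0.51, limma adjusted p = 0.926). Its direction turned positive, up to 0.17, when CXCL14 replicate 2, untreated replicate 1 or untreated replicate 2 was left out. Fgfr2 averaged 6.00 ± 1.84 FPKM with CXCL14 and 7.68 ± 4.38 without, with a log2 fold change of -0.20 (SE 0.41, limma adjusted p = 0.851), which also turned positive without CXCL14 replicate 2 or untreated replicate 2. Fgfr3 averaged 2.13 ± 0.798 FPKM with CXCL14 and 1.62 ± 0.432 without, with a log2 fold change of 0.24 (SE 0.23, limma adjusted p = 0.690). Met averaged 1.53 ± 0.664 FPKM with CXCL14 and 1.02 ± 0.673 without, with a log2 fold change of 0.34 (SE 0.30, limma adjusted p = 0.673). Fgfr3 shrank to 0.07 without CXCL14 replicate 3, and Met to 0.15 without CXCL14 replicate 3 and 0.11 without untreated replicate 3, while voom gave 0.38 for Fgfr3 and 0.75 for Met. The median over the 4 receptors was 0.05 and over all genes tested -0.06.

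Without CXCL14 replicate 1, 0 of the 4 receptors passed, against 5.18% of all genes tested in that fit, 2.16% higher and 3.02% lower, and 0 of 4 had an unadjusted p under 0.05 by limma-trend. The log2 fold changes were then -0.50 for Fgfr1, -0.38 for Fgfr2, 0.45 for Fgfr3 (limma adjusted p = 0.172) and 0.54 for Met (limma adjusted p = 0.284). Without both libraries numbered 1 they were -0.20 for Fgfr1, -0.30 for Fgfr2, 0.37 for Fgfr3 and 0.52 for Met, again with 0 of 4 called, against 0.13% of all genes.

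The ligands, under the filter, were compared by an exact permutation test, whose smallest possible 2-sided p with 3 against 3 libraries is 0.1. Fgf2 averaged 0.264 ± 0.154 FPKM with CXCL14 and 0.172 ± 0.0518 without (n = 3 each, SD, exact permutation p = 0.4). Fgf7 averaged 0.340 ± 0.458 FPKM with CXCL14 and 0.506 ± 0.358 without (exact permutation p = 0.7), and Fgf10 0.275 ± 0.274 FPKM with CXCL14 and 0.413 ± 0.279 without (exact permutation p = 1.0). Hgf averaged 0.128 ± 0.0592 FPKM with CXCL14 and 0.200 ± 0.129 without (exact permutation p = 0.5). In a limma-trend fit without the filter, over 17464 genes, 0 of the 8 genes and 0.0% of all genes passed. None of the 8 had an unadjusted p under 0.05 there either, against 1133 of the 17464 genes. In that fit the 4 ligands had log2 fold changes between -0.19 for Fgf7 and 0.10 for Fgf2, on a scale that compresses changes of such low genes. Without CXCL14 replicate 1 they were 0.01 for Fgf2, -0.46 for Fgf7, -0.32 for Fgf10 and -0.12 for Hgf, with 0 of the 8 genes called (smallest limma adjusted p of a ligand 0.294), against 1.63% of all genes in that fit.

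**Figure D4:**
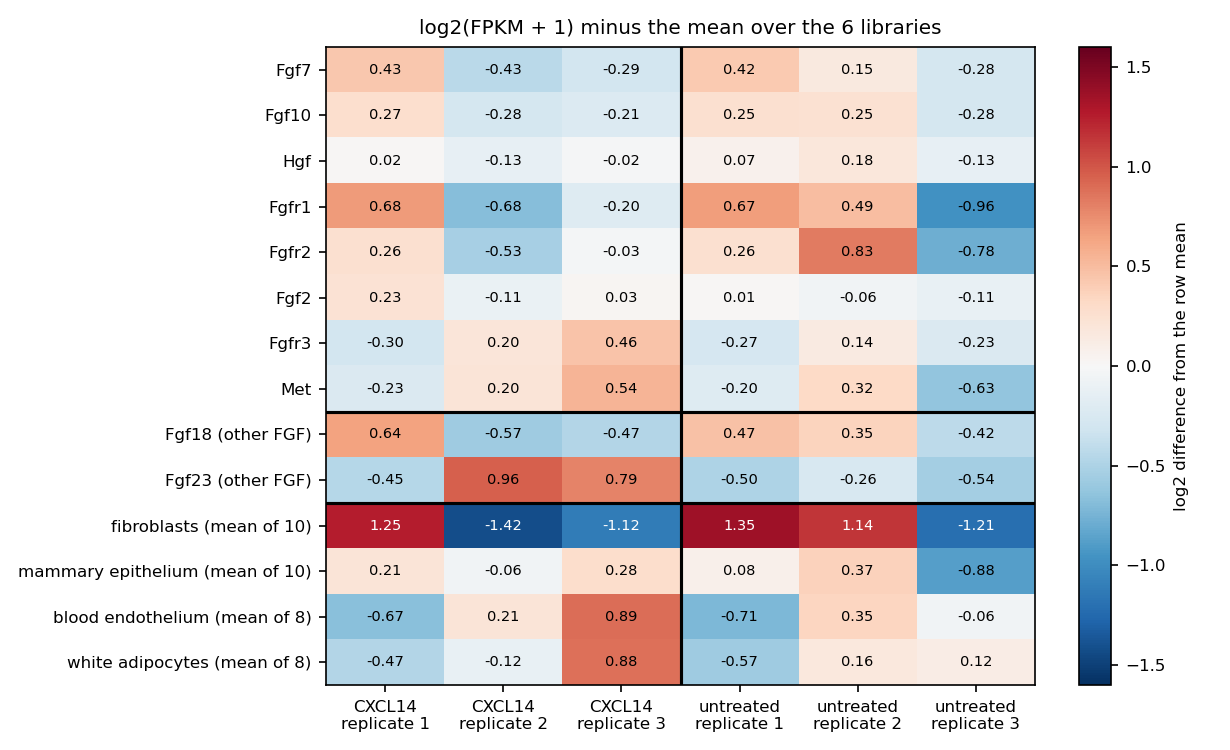
Level of each gene, as log2(FPKM + 1) minus its mean over the 6 libraries, with CXCL14 libraries in the left columns and untreated in the right, and the same for the mean of 4 marker lists. Fgf7, Fgf10, Fgfr1 and Fgf18 are above their means in CXCL14 replicate 1 and untreated replicates 1 and 2, as is the mean of the fibroblast markers.

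Fgf7, Fgf10, Hgf, Fgfr1 and Fgfr2, 5 of the 8 genes, had their 3 highest levels in CXCL14 replicate 1 and untreated replicates 1 and 2. The same 3 libraries held the 3 highest levels of 9 of 10 fibroblast markers, and of 17.4% of all genes tested. For Hgf the third place was within counting error. It rested on 8 reads in CXCL14 replicate 1 (interval 3.45 to 15.8) against 7 in CXCL14 replicate 3 (2.81 to 14.4). The mean log2(FPKM + 1) over the 10 fibroblast markers was 5.28, 2.61 and 2.91 in CXCL14 replicates 1, 2 and 3, against 5.38, 5.17 and 2.82 in untreated replicates 1, 2 and 3. The summed level of these markers ranged from 70.1 to 760 FPKM with CXCL14, against 82.3 to 809 FPKM without, and 0 of the 10 were at 0 in any library. Pdgfrb was the exception among the 10, highest in untreated replicate 2 and CXCL14 replicates 2 and 3. It was at 4.46, 6.32 and 11.9 FPKM with CXCL14, against 4.74, 15.1 and 5.84 FPKM without. Pdgfra, a defining receptor of fibroblasts, was at 3.35, 0.421 and 0.448 FPKM with CXCL14, against 3.69, 3.03 and 0.335 FPKM without. The 6 macrophage markers had the same 3 highest libraries, with a summed level of 233, 40.1 and 58.5 FPKM with CXCL14, against 233, 172 and 69.6 FPKM without. So did the mean of the 6 skeletal muscle markers, though not Myh1 by itself. The muscle markers had a summed level of 27.8, 8.46 and 11.1 FPKM with CXCL14, against 21.0, 33.1 and 14.7 FPKM without. Of these 6 markers, 1 was at 0 in untreated replicate 3. The part of fibroblast, macrophage or muscle content in the ligand and receptor levels was not tested.

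The mean over the 10 epithelial markers followed another order, though not each marker did. Their mean log2(FPKM + 1) was 3.83, 3.57 and 3.91 in the CXCL14 libraries, against 3.71, 4.0 and 2.74 in the untreated ones. It was lowest in untreated replicate 3, as were the receptors Fgfr1, Fgfr2 and Met and also the ligands Fgf2, Fgf10 and Hgf. The summed level of the epithelial markers ranged from 233 to 299 FPKM with CXCL14, against 119 to 366 FPKM without, with 0 at 0. Krt19 and Krt7 had the 3 highest libraries of Fgfr1, Fgfr2 and most fibroblast markers. Krt19 was at 80.8, 48.5 and 63.2 FPKM with CXCL14, against 80.2, 104 and 36.8 FPKM without. Krt8 and Cldn3 had the 3 highest libraries of Met and Fgfr3, and the remaining epithelial markers had neither set. The mean over 8 blood endothelial markers was 5.48, 6.36 and 7.04 with CXCL14, against 5.44, 6.50 and 6.09 without. Its 3 highest libraries, CXCL14 replicates 2 and 3 and untreated replicate 2, were those of Met and Fgfr3. The share of all genes with this set was not counted. The endothelial mean was lowest in the libraries numbered 1, as was Fgfr3, whereas Met was lowest in untreated replicate 3. The mean over the 5 lymph node stroma markers also had CXCL14 replicates 2 and 3 and untreated replicate 2 as its 3 highest libraries. Their summed level was 206, 624 and 774 FPKM with CXCL14, against 217, 741 and 545 FPKM without. Glycam1, Ccl21a and Madcam1 each had these 3 highest libraries, but Cxcl13 and Ccl19 did not. Cxcl13 was at 1.16, 0.209 and 0.352 FPKM with CXCL14, against 1.73, 1.85 and 0.463 FPKM without. Ccl19 was at 0.906, 0.214 and 0.722 FPKM with CXCL14, against 0.555, 0.230 and 0.211 FPKM without. The endothelial summed level ranged from 429 to 1283 FPKM with CXCL14, against 409 to 859 FPKM without, and 0 of the 8 were at 0. The tissue labelled mammary gland thus held epithelial, stromal and vascular transcripts, together with B-cell markers whose 6 genes summed to between 1058 and 1300 FPKM. Their mean log2(FPKM + 1) was 6.89, 7.03 and 6.76 with CXCL14, against 6.86, 6.92 and 6.99 without. For the 6 T-cell markers it was 6.45, 5.63 and 5.41 with CXCL14, against 6.57, 6.27 and 6.55 without. Both lymphocyte means were above the epithelial mean in every library. The part of any of these cell types in the low levels of the 4 ligands, or in the levels of Met, Fgfr3 and Fgfr2, was not tested.

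The genes nearest to each variable receptor over the 6 libraries were found by the root mean square difference of centred log2(FPKM + 1) values. For Fgfr1 they were Abi3bp, which encodes a matrix protein, with a difference of 0.07, Ddr2, a collagen receptor, with 0.07, and Bmp1, a procollagen protease, with 0.08. For Fgfr2 they were Stc2, a secreted glycoprotein, with 0.06, the chemokine gene Cxcl17 with 0.08 and the luminal keratin gene Krt19 with 0.08. For Met they were Sntb2, a syntrophin, with 0.05, Cdr2l with 0.07 and Gab1, the adaptor that docks on activated Met, with 0.09. Gab1 measured 1.32, 2.29 and 3.41 FPKM in the CXCL14 libraries, against 1.31, 2.79 and 1.04 FPKM in the untreated ones. Between the receptors themselves the differences were 0.19 for Met and Fgfr3, 0.30 for Fgfr1 and Fgfr2, and 0.79 for Fgfr1 and Fgfr3. Fgfr3 spanned too little for this search. These are descriptions over 6 libraries, of which 2 nearly coincide.

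The rest of the pathway was described with 6 gene lists, 87 genes in all. Values were present for 81 of them, and 53 passed the filter. With all libraries 0 of these 53 passed the test by limma-trend (0.0% of all genes), and voom called 0. An unadjusted p under 0.05 by limma-trend was found for 4 of the 53, against 895 of all 11516 genes tested. Of the 53, 20 had positive and 33 negative log2 fold changes, with a median of -0.06, the same as over all genes, of which 62.8% were negative. Groups did not overlap for 7 of the 53, 3 higher and 4 lower with CXCL14, against 13.1% of all genes tested. Among them were Sdc4, Sos1 and Dusp4, higher, and Hs6st1, Grb2 and Map2k1, lower.

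Of 19 other FGF ligands, 14 had values and only Fgf13 passed the filter. Fgf13, an intracellular FGF that regulates sodium channels, had 0.855 ± 0.408 FPKM in CXCL14 glands and 1.23 ± 0.0380 FPKM in untreated glands (n = 3 each, SD). Its log2 fold change was -0.29 (SE 0.18, limma adjusted p = 0.597), and its groups overlapped. Both secreted FGFs described next were chosen after their values were seen. Fgf18, which signals mainly through Fgfr3 in cartilage, had 34, 1 and 3 reads in the CXCL14 libraries, against 28, 23 and 4 reads in the untreated ones, the same libraries being high as for Fgf7. Fgf23, a phosphate-regulating hormone best known from bone, had 4, 66 and 57 reads in the CXCL14 libraries, against 3, 9 and 2 reads in the untreated ones. In FPKM this was 0.128, 2.00 and 1.67 with CXCL14, against 0.0944, 0.293 and 0.0598 without. Fgf23 was higher in CXCL14 replicates 2 and 3 than in all other libraries, while CXCL14 replicate 1 lay within the untreated range. In the fit without the filter its log2 fold change was 0.86 (limma adjusted p = 0.661), and 1.31 without CXCL14 replicate 1 (limma adjusted p = 0.0291), where 1.63% of all genes passed. The latter setting was also chosen after seeing the data, and its p-value allows for neither choice.

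Among receptors and co-receptors, 3 of 4 had values and Fgfrl1, a receptor without a kinase domain, was tested, with a log2 fold change of 0.20 (SE 0.18, limma adjusted p = 0.679). Of 12 genes of HGF activation and its inhibitors, 7 were tested, 4 positive and 3 negative, with a median log2 fold change of 0.07 and 0 passing. St14, a protease that activates pro-HGF, averaged 7.08 ± 0.719 FPKM with CXCL14 and 6.10 ± 1.33 without, Hpn, another such protease, 1.36 ± 0.291 with CXCL14 and 1.20 ± 0.680 without, and Spint2, an inhibitor of both, 28.5 ± 2.30 with CXCL14 and 29.6 ± 0.920 without (n = 3 each, SD). Hpn and Spint2 changed sign under other settings.

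Heparan sulfate chains hold FGFs and HGF at the cell surface. Of 18 genes for their core proteins and synthesis 15 were tested, 3 positive and 12 negative, with a median log2 fold change of -0.13 and 0 passing. Sdc4, a syndecan, measured 37.0, 45.6 and 49.2 FPKM in the CXCL14 libraries, against 36.0, 34.0 and 22.9 FPKM in the untreated ones. All CXCL14 values were above all untreated ones, by a log2 fold change of 0.51 (SE 0.19, limma adjusted p = 0.573). Hs6st1, a sulfotransferase, averaged 18.5 ± 1.10 FPKM with CXCL14 and 20.4 ± 1.24 without, also without overlap, and Ext2, a chain polymerase, 10.8 ± 0.766 with CXCL14 and 12.4 ± 1.80 without (n = 3 each, SD).

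Signal adaptors and kinases had 16 of 17 genes tested, 4 positive and 12 negative, with a median log2 fold change of -0.08 and 0 passing. Grb2, which links receptors to Ras activation, measured 62.8, 50.9 and 47.6 FPKM in the CXCL14 libraries, against 65.3, 63.9 and 70.9 FPKM in the untreated ones, a log2 fold change of -0.32 (SE 0.12, limma adjusted p = 0.573). The groups did not overlap for Grb2, though CXCL14 replicate 1 lay close to the untreated libraries. Map2k1, an ERK-activating kinase, had -0.24 (SE 0.11), without overlap, and Cbl, a ubiquitin ligase for activated receptors, had -0.43 (SE 0.18), with overlap.

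The FGF and ERK response list had 13 of 17 genes tested, 8 positive and 5 negative, with a median log2 fold change of 0.13 and 0 passing. Dusp4, a phosphatase of ERK, measured 29.5, 33.1 and 36.7 FPKM in the CXCL14 libraries, against 25.1, 24.6 and 23.1 FPKM in the untreated ones. Every CXCL14 value was above every untreated value, a log2 fold change of 0.43 (SE 0.11, limma adjusted p = 0.573). Fosl1, an AP-1 subunit induced by ERK, measured 2.52, 5.76 and 6.82 FPKM with CXCL14, against 2.81, 2.29 and 2.00 FPKM without, with CXCL14 replicate 1 inside the untreated range and a log2 fold change of 0.77 (SE 0.30). Phlda1 had 0.28 (SE 0.15). Without CXCL14 replicate 1, Dusp4 rose by a log2 fold change of 0.50 (limma adjusted p = 0.0450) and Fosl1 by 1.12 (limma adjusted p = 0.0308). These were 2 of the 13 in that list, and 0 of the 40 other pathway genes tested passed in that fit, where 5.18% of all genes passed. Without both libraries numbered 1, 0 of the 53 passed. All 6 T-cell markers had negative log2 fold changes without CXCL14 replicate 1. By limma-trend 4 of them passed as lower in that fit, against 3.02% of all genes tested. The 6 T-cell markers had a summed level of 570, 342 and 286 FPKM in CXCL14 replicates 1, 2 and 3, against 617, 495 and 616 FPKM in untreated replicates 1, 2 and 3. Their part in the levels of Dusp4 and Fosl1 was not tested. The FGF feedback inhibitors Spry1, Spry2 and Spry4, and the FGF-responsive factor Etv5, did not pass in any of these 3 fits.

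**Figure D5:**
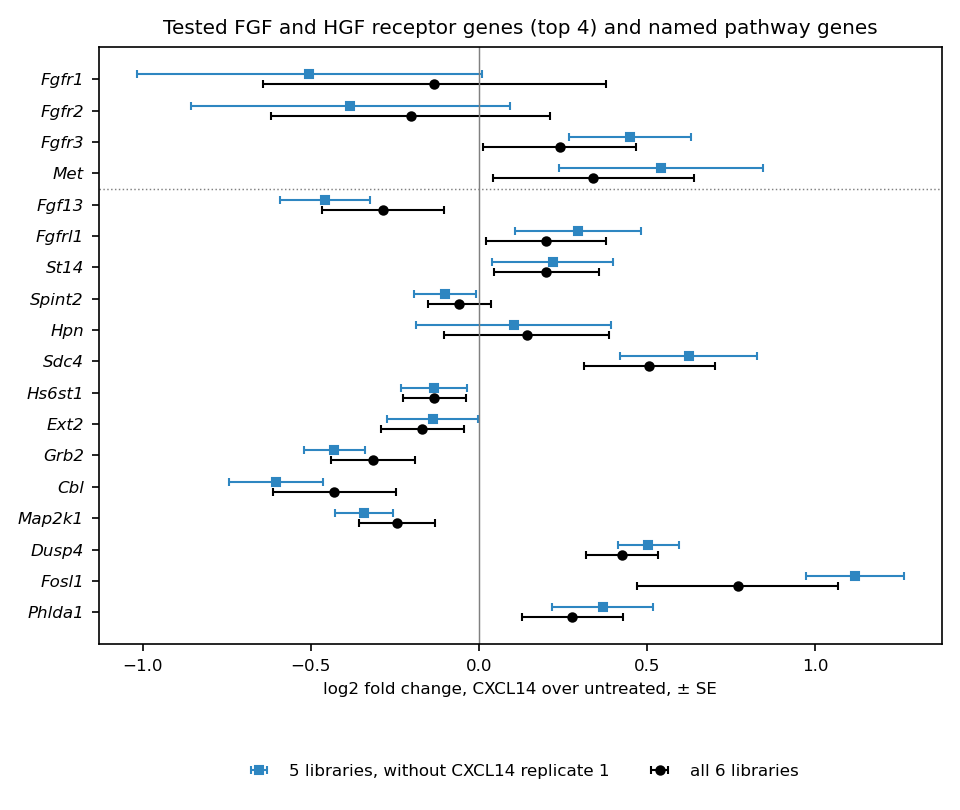
Log2 fold change of CXCL14 over untreated with its moderated SE, for the 4 tested receptors above the dotted line and 14 named pathway genes under it, with all 6 libraries (black) and without CXCL14 replicate 1 (blue). In black 0 of the 18 passed an adjusted p of 0.05, and in blue Dusp4 and Fosl1 did.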

How the data were processed

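Total RNA of 6 mammary glands, 2 µg per sample per the labels' protocols, was made into libraries with an NEBNext Ultra kit. The authors deposited 1 FPKM value per gene symbol and library, a unit scaled for gene length and library total. Named in the submitters' processing notes, without order or purpose, are HTSeq 0.6.0, HISAT2 2, Bowtie2 2.2.3 and the build mm8. For annotation, filters and strand setting no source used here has an entry.

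Groups came from the treatment label and replicate numbers from the titles. Within a gene the deposited FPKM values were whole multiples of 1 step per library, and the steps also gave whole gene lengths. Reads and lengths came out whole for 17464 of 17464 genes, within 0.004 reads, or within 0.02 reads for the most abundant genes, whose lengths were searched instead. They are the smallest whole numbers that fit, so a common factor is possible for a gene with few reads. The lengths of Fgf7 (2672) and Fgfr1 (5025) equal those of transcripts in GENCODE M21, but those of the other members do not. Some exceed the longest transcript there: Fgf10 (4572 against 4114), Fgfr2 (5346 against 4429), Fgfr3 (4529 against 4245) and Met (6901 against 6809). Recovered reads served for depth, Poisson intervals and voom.

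The fit was limma-trend (limma 3.58.1, R 4.3.3) on log2(FPKM + 1), for genes at 1 FPKM or more in at least 3 libraries, called at a Benjamini-Hochberg adjusted p under 0.05 over all 11516 genes. The code was tested on simulated data. SEs are moderated, and each SD is taken over the 3 libraries of its group. The 8 genes, the lists and the rules were chosen with earlier results of these data known. From each pathway list up to 3 tested genes with the smallest unadjusted p were named, and for each tested receptor spanning at least 1 on the log2 scale the 3 nearest genes, leaving out predicted and clone names. Promoter windows are from RefSeq on GRCm38.p6, which held 7 of the 8 genes. Since the files name another build, no position of a measured read is given. One pathway gene is not reported by name here. Alternatives were another pseudocount, no filter, median-ratio scaling, voom, a replicate block, and leaving out libraries.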

Additional observations from a re-analysis of the deposited data

How the results depend on the processing

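The count of genes called was 0 with all 6 libraries, and ranged from 0 to 597 when 1 library was left out, 597 being the count without CXCL14 replicate 1 (249 higher and 348 lower) and 0 for each of the other 5. It was 15 without both libraries numbered 1 and 284 without CXCL14 replicate 1 and without the filter, a setting chosen after seeing the data. The count of pathway genes called was 0, ranged from 0 to 2 when 1 library was left out, and was 1 without CXCL14 replicate 1 and the filter, where that gene was Fgf23. Of the 4 receptors 0 were called under each of the 13 alternatives, and of the 4 ligands 0 in the fits without the filter, the fits in which they were tested.

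When 1 library was left out, log2 fold changes ranged from -0.65 to 0.17 for Fgfr1, from -0.65 to 0.16 for Fgfr2, from -0.10 to 0.0071 for Spint2 and from -0.078 to 0.37 for Hpn. Spint2 also turned to 0.026 with median-ratio scaling, which moved the median over all genes to 0.01. The cause was not tested. Fgf2, Fgf7, Fgf10, Hgf, Fgfr3 and Met kept their sign under every alternative run for them, but not their size: when 1 library was left out, the log2 fold change ranged from 0.01 to 0.18 for Fgf2, from -0.46 to -0.02 for Fgf7, from -0.33 to -0.05 for Fgf10, from -0.17 to -0.01 for Hgf, from 0.07 to 0.45 for Fgfr3 and from 0.11 to 0.59 for Met. With a pseudocount of 0.1 Met had 0.64. With a pseudocount of 0.1 the ligands had log2 fold changes of 0.35 for Fgf2, -0.79 for Fgf7, -0.48 for Fgf10 and -0.32 for Hgf, against 0.10, -0.19, -0.15 and -0.08 with a pseudocount of 1. Voom was not run for the ligands, which lie under the filter.

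Deviations from the group means correlated at 0.69 for the pair numbered 1, -0.30 for number 2 and 0.06 for number 3. With so few libraries these values cannot settle whether replicate numbers pair the samples. With a replicate block the counts called were 0 over all genes, 0 of the receptors and 0 of the pathway genes. Depth limits the ligands most, with as few as 1 read of Fgf7 in a library.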
